A study of Mus musculus with 22 samples.

Results

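Cirbp and Rbm3 encode the cold-inducible RNA-binding proteins, and their mRNAs were followed in the mouse hypothalamus across genotype and inflammatory challenge. The genes were chosen by symbol in the platform annotation: they are 2 of the 19935 genes measured, and 4 of 28815 probe sets carried one of these symbols alone. Cirbp had 1 probe set (10364712) and Rbm3 had 3 (10358454, 10556113 and 10603469), which were averaged. No probe set that listed several symbols named either gene.

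The study examined whether interleukin-6 (IL-6), a cytokine that takes part in fever, shapes the hypothalamic response to lipopolysaccharide (LPS), a bacterial cell wall component. Male C57bl6 mice, 9 to 12 weeks old, carried a deficiency of IL-6 (IL-6 KO) or were wild-type (WT) littermates. They were kept singly at 20 to 21 °C with 12 h of light, received Escherichia coli LPS at 120 µg/kg or saline into the peritoneum, were killed 3 h later and were perfused with 0.9% saline. There were 4 arrays of WT mice after saline, 7 of WT mice after LPS, 4 of KO mice after saline and 7 of KO mice after LPS. The labels give no body temperature, do not state which part of Il6 is altered, and do not say that each array is a separate mouse. The p-values therefore measure the spread between arrays, which may be partly technical.

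CIRBP and RBM3 are small proteins with a single RNA recognition motif followed by a glycine-rich tail. Both mRNAs are known to rise when mammalian cells are mildly cooled and to fall when they are warmed, over the range in which body temperature itself varies. CIRBP binds and stabilises selected mRNAs, among them the mRNA of the clock protein CLOCK, and released CIRBP acts on Toll-like receptor 4 in inflammation. RBM3 is known for supporting translation and for protecting synapses in cooled brain.

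The deposited values are log2 deviations from the median array, so a value of 0.10 means that the array lay 0.10 log2 units above the median of the 22 arrays for that gene. Such a table holds no level, so Cirbp cannot be set against Rbm3 in abundance, and the hypothalamic markers cannot be shown to be present, only compared between arrays. Each array is a whole-tissue sample, so fewer cells that express a gene and less of its RNA per cell cannot be told apart.

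The Cirbp promoter is shown because a cold-responsive element has been described for this gene. The sequence comes from RefSeq on GRCm38.p6, chr10:80167589-80167838 on the plus strand, and covers the 250 bases before 1 of the 2 Cirbp start sites in the promoter table. Capitals mark the mild cold-responsive element TCCCCGCC, at bases -247 to -240 from the start site.

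Cirbp promoter: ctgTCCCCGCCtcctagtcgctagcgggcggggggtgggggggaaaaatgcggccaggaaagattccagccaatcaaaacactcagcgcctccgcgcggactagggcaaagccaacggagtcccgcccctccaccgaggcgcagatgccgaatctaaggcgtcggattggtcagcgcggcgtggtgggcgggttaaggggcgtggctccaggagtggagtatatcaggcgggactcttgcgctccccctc

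Both strands of the 250 bases before each start site were searched for 5 motifs, with the share of 32851 mouse promoters of the same length that hold each one. TCCCCGCC matched once before this start site and not before the other one, and 4.64% of all promoters held it. The GC box GGGCGG, bound by Sp1-type factors, matched 3 times before this start site and 4 times before the other, and 32.7% of promoters held it. The CCAAT box, spelled CCAAT, matched 2 times before this start site, and 33.8% of promoters held it. No match was found before either Cirbp start site for the heat-shock element core GAANNTTC, held by 6.69% of promoters, or for the STAT core TTCNNNGAA, the kind of site through which IL-6 signals reach DNA, held by 7.02%. None of the matches overlapped another. These matches describe letters in a window and not binding. Rbm3 lies on the X chromosome; its promoter is named only.

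Cirbp was highest in KO mice after saline and lowest in WT mice after LPS. In WT mice after saline it measured -0.05, -0.10, -0.03 and 0.20, with a mean of 0.005 ± 0.13 (SD, n = 4). In WT mice after LPS the lowest array was at -0.49, the median at -0.16 and the highest at -0.01, and the mean was -0.17 ± 0.16 (SD, n = 7). All 7 of these arrays lay below the median array.

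The KO arrays of Cirbp lay mostly above it. After saline they measured 0.10, 0.22, 0.28 and 0.12, a mean of 0.18 ± 0.09 (SD, n = 4), all positive. After LPS the lowest array was at -0.05, the median at 0.09 and the highest at 0.23, a mean of 0.09 ± 0.10 (SD, n = 7), and 6 of 7 arrays were positive.

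Rbm3 gave the same order of group means in a narrower range. In WT mice after saline it measured -0.10, -0.01, -0.15 and -0.06, a mean of -0.08 ± 0.06 (SD, n = 4). In WT mice after LPS the lowest array was at -0.24, the median at -0.18 and the highest at 0.08, a mean of -0.11 ± 0.12 (SD, n = 7). The range of the WT saline arrays lay within the wider range of the WT LPS arrays. The median of the WT LPS arrays lay below the lowest WT saline array.

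KO mice after saline measured 0.12, 0.10, 0.07 and 0.06 for Rbm3, a mean of 0.09 ± 0.03 (SD, n = 4). KO mice after LPS spanned -0.07 to 0.13 with a median of 0.06, a mean of 0.04 ± 0.07 (SD, n = 7). Under saline every KO array lay above every WT array for Rbm3. Of all genes measured, 1.78% had KO saline arrays that were all higher than the WT saline arrays, and 2.97% showed no overlap in either direction. In none of the other pairwise comparisons of genotype or treatment were the arrays of either gene free of overlap; the share of all genes without overlap in either direction was 2.34% for LPS in WT mice, 1.66% for LPS in KO mice and 0.13% for KO against WT under LPS.

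Neighbours in the order KO saline, KO LPS, WT saline, WT LPS were not all separated. For Cirbp the means of KO LPS and WT saline differed by less than the SD of the WT saline arrays, and those of KO saline and KO LPS by less than the SD of the KO LPS arrays. For Rbm3 the 2 treatments within each genotype differed by less than the larger SD of the pair.

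**Figure D1:**
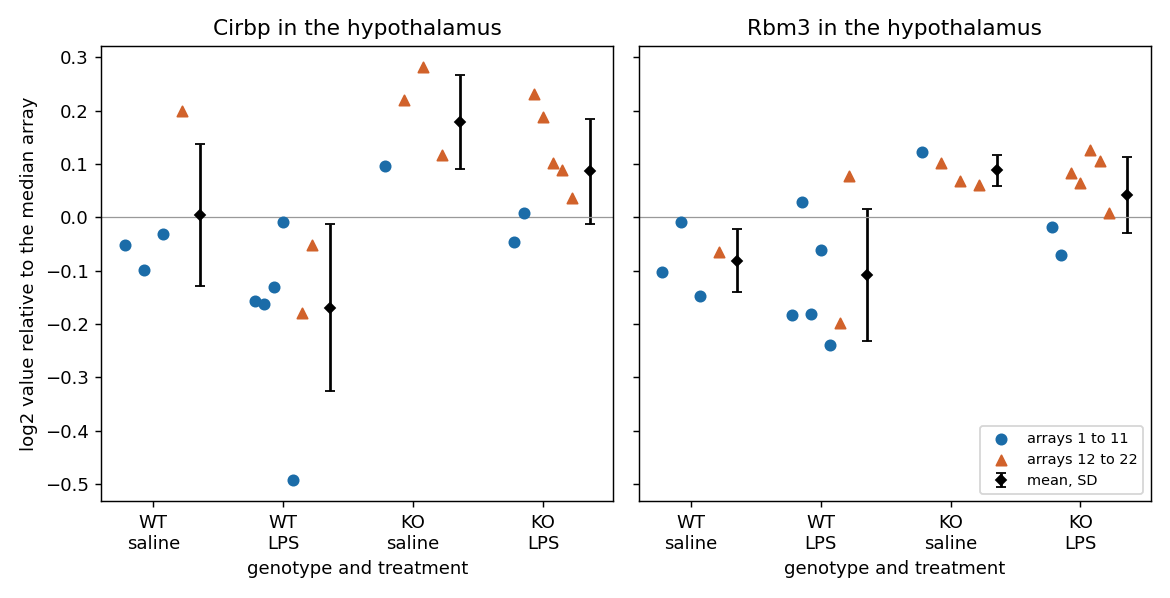
Log2 value of Cirbp (left) and Rbm3 (right) on each of 22 arrays relative to the median array, by genotype and treatment; circles are arrays 1 to 11, triangles are arrays 12 to 22, and diamonds with bars are the group mean and SD. The means of the KO groups lie above those of the WT groups for both genes, and 1 WT LPS array of Cirbp lies at -0.49. Within a treatment, single arrays of the genotypes overlap except for Rbm3 under saline.

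KO against WT under LPS gave the largest difference for Cirbp. Cirbp was 0.26 log2 units higher in KO mice (SE 0.06; 95% interval 0.12 to 0.39), a 1.19-fold difference, and ranked 51 of 19935 genes by p. Its adjusted p was 0.194 in limma over all genes, which does not pass 0.05. An exact permutation test of this single difference over the arrays, two-sided and not adjusted for other genes, gave p = 0.00117. With array quality weights the difference was 0.26 and passed, at an adjusted p of 0.0268 in limma, and with both the weights and the array block (arrays 1 to 11 against arrays 12 to 22) it was 0.17 with an adjusted p of 0.451.

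Rbm3 was 0.15 log2 units higher in KO mice under LPS (SE 0.05; interval 0.05 to 0.25), or 1.11-fold, with an adjusted p of 0.328 in limma. The exact permutation p was 0.0221, unadjusted. Neither gene was called, against 0.0401% of all genes called in this comparison (8 genes). In all, 24 exact permutation tests of the 2 genes were computed, and a choice of genes made with earlier results known is not accounted for in them.

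KO against WT under saline showed the genotype difference without LPS. Cirbp was 0.17 higher in KO mice (SE 0.08; interval 0.001 to 0.35; adjusted p = 0.84 in limma), with an exact permutation p of 0.0857. Rbm3 was also 0.17 higher (SE 0.06; interval 0.04 to 0.30; adjusted p = 0.84 in limma), with an exact permutation p of 0.0286, the smallest that 4 arrays against 4 can give. Under saline 0.00502% of all genes were called (1 gene), and neither Cirbp nor Rbm3 was among them.

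Averaged over both treatments, the genotype difference was 0.22 for Cirbp (SE 0.05; interval 0.11 to 0.32), or 1.16-fold. For Rbm3 it was 0.16 (SE 0.04; interval 0.08 to 0.24), or 1.12-fold. The genes ranked 50 and 52 of 19935, each with an adjusted p of 0.158 in limma, in a comparison that called 0.0251% of genes (5). The exact permutation p, with genotype exchanged within treatments, was 0.000549 for Cirbp and 0.000383 for Rbm3. Without KO LPS replicate 1 the adjusted p in limma passed for both, at 0.0457 for Cirbp and 0.0499 for Rbm3, and with array quality weights at 0.0115 and 0.0179. With the array block added, these values were 0.506 for each gene without that array, and 0.664 for Cirbp and 0.801 for Rbm3 with the weights.

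After LPS the mean of Cirbp lay below its saline mean in both genotypes, without passing the test. In WT mice Cirbp was at -0.17 relative to saline (SE 0.07; interval -0.33 to -0.02; adjusted p = 0.604 in limma; exact permutation p = 0.0697), and it was at -0.11 without WT saline replicate 4 and at -0.12 without WT LPS replicate 5, the array at -0.49. Within arrays 1 to 11 it was at -0.13, and within arrays 12 to 22, which hold 1 WT saline array, at -0.32. In KO mice it was at -0.09 (SE 0.07; interval -0.25 to 0.06; adjusted p = 1 in limma; exact permutation p = 0.152), and at -0.06 without KO saline replicate 3. Averaged over genotypes the difference was -0.13 (SE 0.05; interval -0.24 to -0.02; adjusted p = 0.324 in limma; exact permutation p = 0.0188).

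Rbm3 after LPS differed from saline by -0.03 in WT mice (SE 0.06; interval -0.14 to 0.09), -0.05 in KO mice (SE 0.06; interval -0.16 to 0.07) and -0.04 averaged over genotypes (SE 0.04; interval -0.12 to 0.04; adjusted p = 0.919 in limma). Averaged over genotypes it was -0.10 within arrays 1 to 11 (adjusted p = 0.428) and 0.002 within arrays 12 to 22 (adjusted p = 0.999). In KO mice these values were -0.17, with 1 saline array, and 0.0003. The LPS effect was called for 1.8% of genes in WT mice, 1.34% in KO mice and 2.76% averaged over both, and in none of these for Cirbp or Rbm3.

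Whether the LPS effect differed between genotypes was tested by the interaction. It was 0.08 for Cirbp (SE 0.11; interval -0.14 to 0.30) and -0.02 for Rbm3 (SE 0.08; interval -0.18 to 0.14), both with an adjusted p of 1 in limma. For Cirbp it was 0.01 within arrays 1 to 11, 0.24 within arrays 12 to 22 and 0.02 without WT saline replicate 4. The intervals include an LPS effect that is the same in both genotypes and also differences as large as the LPS effects themselves. The interaction called no gene at all (0%), in this fit and with the array block as a term.

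**Figure D2:**
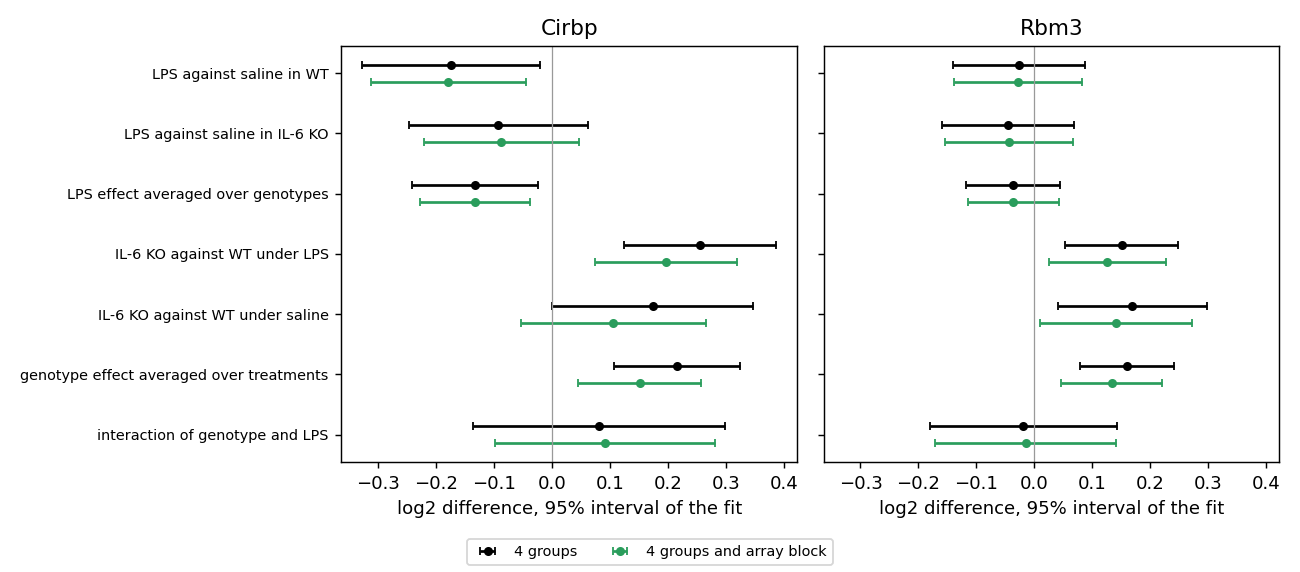
Log2 difference with its 95% interval for 7 comparisons of Cirbp (left) and Rbm3 (right), from the fit of 4 group means (black) and from the fit that adds the array block (green); the line at 0 marks no difference. The genotype differences lie to the right of 0 and shrink when the array block is added, most for Cirbp.

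Genotype was not spread evenly over the array numbers in the labels. Arrays 1 to 11 held 8 WT and 3 KO arrays, and arrays 12 to 22 held 3 WT and 8 KO arrays; the labels do not say what the numbers stand for. With group means held constant, Cirbp was 0.14 higher on arrays 12 to 22 (SE 0.05; interval 0.03 to 0.24; adjusted p = 0.0506 in limma), and 21.5% of all genes were called in that comparison. Rbm3 was 0.06 higher there (SE 0.04; interval -0.03 to 0.14; adjusted p = 0.374 in limma).

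With the array block in the fit, KO against WT under LPS was 0.20 for Cirbp (SE 0.06; adjusted p = 0.702 in limma) and 0.13 for Rbm3 (SE 0.05; adjusted p = 0.907). Under saline it was 0.11 for Cirbp (SE 0.08; interval -0.05 to 0.27) and 0.14 for Rbm3 (SE 0.06; interval 0.01 to 0.27), both with an adjusted p of 1. Averaged over treatments it was 0.15 for Cirbp and 0.13 for Rbm3, each with an adjusted p of 0.838. These differences kept their sign and were smaller than without the block by 16.4% (Rbm3 under LPS) to 39.3% (Cirbp under saline). The LPS effect of Cirbp in WT mice was -0.18 with the block (adjusted p = 0.289 in limma), close to its value without it. With the block, calls were made for 2.17% of genes after LPS in WT mice, 1.59% after LPS in KO mice and 3.4% for LPS averaged over genotypes. For KO against WT they were made for 0.01% under LPS, 0.00502% under saline and 0.015% averaged over treatments. Cirbp and Rbm3 were called in none of these 6.

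Within arrays 1 to 11 the KO arrays exceeded the WT arrays under LPS by 0.17 for Cirbp and 0.08 for Rbm3. Within arrays 12 to 22 they did so by 0.25 and 0.14. The former rests on 2 KO LPS arrays and the latter on 2 WT LPS arrays. Arrays 1 to 11 also hold WT LPS replicate 5, with Cirbp at -0.49. Under saline the within-block differences of Cirbp were 0.16 and 0.006, and those of Rbm3 0.21 and 0.14. Each of these saline differences rests on 1 array of 1 genotype. On arrays 1 to 11 it was the only KO saline array, with Cirbp at 0.10 and Rbm3 at 0.12. On arrays 12 to 22 it was the only WT saline array, with Cirbp at 0.20 and Rbm3 at -0.06.

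Exact permutation tests that exchanged arrays only within an array block gave p = 0.0113 for Cirbp and 0.0884 for Rbm3 in KO against WT under LPS. Under saline they gave 0.188 for Cirbp and 0.0625 for Rbm3, the latter being the smallest p that 16 arrangements allow. Averaged over treatments the within-block p was 0.00368 for Cirbp and 0.00454 for Rbm3. That average weighted each treatment in each block by its numbers of arrays, unlike the equal average of the fits. It was 0.16 for Cirbp and 0.13 for Rbm3. The LPS effect of Cirbp averaged over genotypes, weighted in the same way by numbers of arrays, gave a within-block p of 0.00974. All of these permutation p-values are for single values and are not adjusted over genes.

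**Figure D3:**
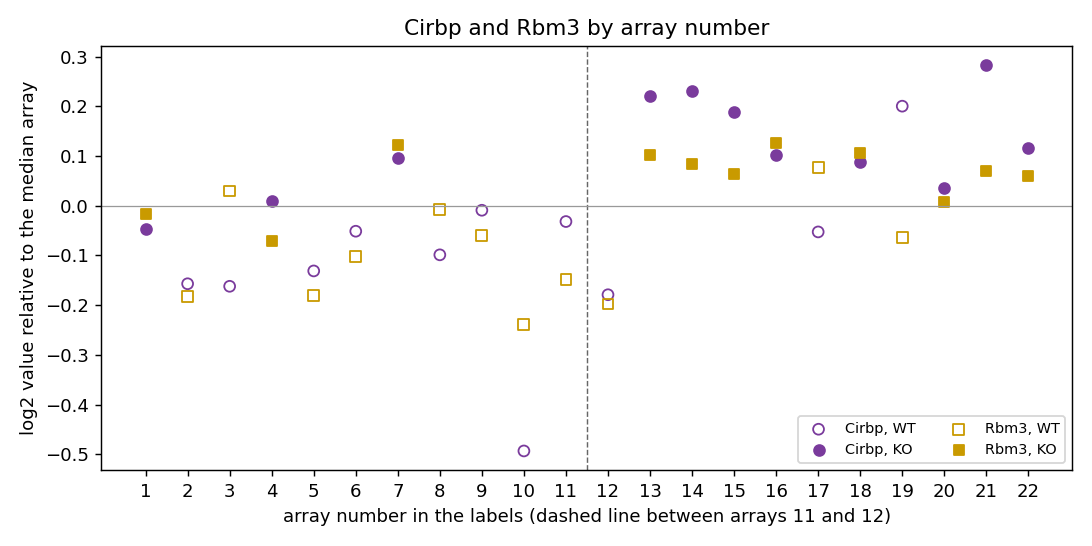
Log2 value of Cirbp (circles) and Rbm3 (squares) relative to the median array, by the array number in the labels; filled symbols are KO and open symbols WT arrays, and the dashed line separates arrays 11 and 12. On arrays 12 to 22 all 8 KO arrays are positive for both genes, while on arrays 1 to 11 only the KO saline array, number 7, is positive for both genes.

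The targeted gene did not separate the labels. After saline the mean of Il6 over 4 arrays was -0.14 (SD 0.035) for WT mice and -0.12 (SD 0.04) for KO mice. After LPS its mean over 7 arrays was 0.07 (SD 0.14) for WT mice and 0.24 (SD 0.20) for KO mice. It rose with LPS in KO mice by 0.36 (SE 0.08; adjusted p = 0.0193 in limma), and KO against WT under LPS gave 0.17 (adjusted p = 0.397). Where the probe set lies relative to the alteration is not stated, so Il6 mRNA neither checks nor contradicts the genotype labels.

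Genes of neighbouring tissue marked single arrays. Ttr, made by the choroid plexus, reached 4.62 on a WT saline array and 2.80 on WT LPS replicate 5, and Gh, the growth hormone gene of the pituitary, exceeded 2 on 3 KO arrays and on no WT array. The mean of 5 endothelial markers ranged from -0.24 to -0.15 over WT LPS arrays, from -0.14 to 0.23 over KO LPS arrays, from 0.33 to 0.56 over WT saline arrays and from 0.48 to 0.61 over KO saline arrays. LPS in WT mice, where 0.376% of all genes were called lower, lowered 4 of these 5 markers (Cldn5, Slco1a4, Tek and Pecam1) and 1 of 5 microglia markers (Cx3cr1). The remaining endothelial marker, Cdh5, went the other way there, at 0.31, and was not called. In KO mice, where 0.256% were called lower, LPS lowered 3 of the endothelial markers (Cldn5, Slco1a4 and Tek) and none of the microglia markers. The highest of the 5 endothelial markers stood at 0.13 in KO mice, not called. The mean of the 5 microglia markers ranged from -0.15 to 0.002 over WT LPS arrays and from -0.07 to 0.11 over KO LPS arrays. Neuron, astrocyte and oligodendrocyte markers had no called member in LPS against saline in WT mice or in KO against WT under LPS. Those comparisons called 1.8% and 0.0401% of all genes. Without the 4 arrays that carried the most Ttr or Gh (WT saline replicate 1, WT LPS replicate 5, KO saline replicate 2 and KO LPS replicate 3), KO against WT under LPS was 0.18 for Cirbp (adjusted p = 0.612 in limma) and 0.12 for Rbm3 (adjusted p = 0.744). Averaged over treatments it was 0.16 and 0.14 without them, and the LPS difference of Cirbp in WT mice was -0.14. The part of the endothelial and microglia markers in the Cirbp and Rbm3 values was not tested.

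The 3 Rbm3 probe sets gave close readings, apart from the array block difference. Probe sets 10358454 and 10603469 correlated at r = 0.99 over 22 arrays and never differed by more than 0.07, while 10556113 correlated with them at 0.916 and 0.933 and differed by up to 0.16 and 0.12. KO against WT under LPS was 0.16, 0.14 and 0.15 on 10358454, 10556113 and 10603469, and under saline it was 0.18, 0.16 and 0.16. In that order, arrays 12 to 22 against arrays 1 to 11 gave 0.09, 0.007 and 0.08 (adjusted p = 0.186, 0.945 and 0.2 in limma). The annotation assigns the same 12 accessions to each of the 3 probe sets, so they may share target sequence and are not independent measurements.

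RefSeq lists a pseudogene, Rbm3-ps, and a long noncoding RNA on the opposite strand, Rbm3os. Signal from a near-identical copy could not be separated from that of Rbm3. The gene symbol Rbm3os had its own probe set, named here after its values were seen: KO against WT under LPS was -0.07 (adjusted p = 0.698 in limma), opposite in sign to Rbm3.

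Within groups, Cirbp and Rbm3 varied together only loosely. Deviations of the 22 arrays from their group means correlated with Pearson's r = 0.486 (permutation p = 0.0533; 0.16 after Benjamini-Hochberg adjustment over 15 relations) and Spearman's rho = 0.418 (p = 0.0614; adjusted 0.184). Without the 2 arrays farthest from the Cirbp median, WT LPS replicate 5 and WT saline replicate 4, r was 0.381. It was 0.431 on arrays 1 to 11 and 0.388 on arrays 12 to 22.

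With the array block also removed, r between Cirbp and Rbm3 was 0.389 (permutation p = 0.178; adjusted 0.579) and rho was 0.237 (p = 0.309; adjusted 0.662). Without WT LPS replicates 4 and 5, the 2 farthest arrays on that scale, r was 0.164. The relation therefore rests in part on a few arrays and was not separated from no relation at this number of arrays.

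**Figure D4:**
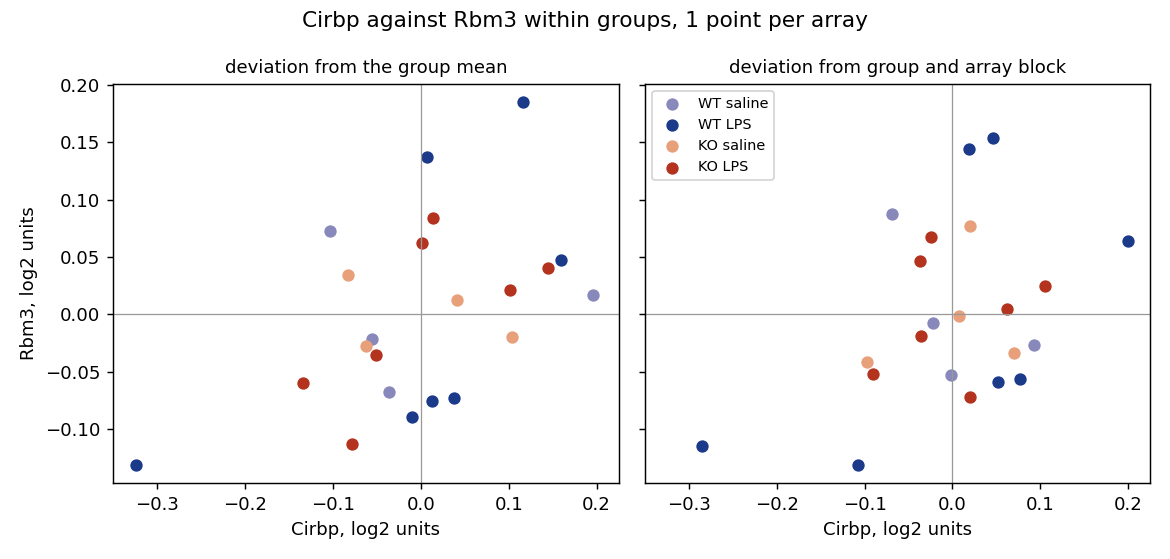
Deviation of Cirbp (horizontal) and Rbm3 (vertical), in log2 units, from the group mean (left) and from group and array block (right), 1 point per array, coloured by group. The points spread widely around a rising trend, and the WT LPS array at the far left, replicate 5, contributes much of it.

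The 15 relations also paired Cirbp and Rbm3 with genes of temperature, stress and time of day. Per1, a clock gene that also responds to glucocorticoids, ran opposite to both: r = -0.579 with Cirbp (permutation p = 0.00922; adjusted 0.0375; rho -0.668, permutation p = 0.00218, adjusted 0.0327) and r = -0.513 with Rbm3 (permutation p = 0.01; adjusted 0.0375; rho -0.473, adjusted 0.112). Without the 2 farthest arrays these were -0.625 and -0.431. For Cirbp the relation lay in arrays 12 to 22, where r was -0.805, against -0.032 on arrays 1 to 11, a difference that was not tested.

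Hsph1, a heat-inducible chaperone, ran with Cirbp at r = 0.628 (permutation p = 0.00589; adjusted 0.0375), with rho = 0.487 (adjusted 0.112) and r = 0.403 without the 2 farthest arrays. Its relation was 0.721 on arrays 1 to 11 and -0.157 on arrays 12 to 22, so it did not hold within both blocks. Dnajb1, a heat-inducible co-chaperone, ran with Rbm3 at r = 0.495 (permutation p = 0.0076; adjusted 0.0375), with rho = 0.494 (adjusted 0.112), 0.539 without the 2 farthest arrays, and 0.447 and 0.525 within the blocks.

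With the array block removed, none of the 15 relations passed: the smallest adjusted p was 0.485 for r, shared by Rbm3 with Dnajb1 (r = 0.477, permutation p = 0.0646) and Rbm3 with Per1 (r = -0.46, permutation p = 0.0562). Cirbp with Per1 was then at r = -0.278 (rho -0.351) and Cirbp with Hsph1 at r = 0.405 (rho 0.032; r = -0.034 without the 2 farthest arrays), each with an adjusted p of 0.579 for r. Without the block, relations of either gene with Hsp90aa1, Dbp, Cxcl10 and Fkbp5, and those of Cirbp with Dnajb1 and Rbm3 with Hsph1, had an adjusted p of 0.352 or more for r.

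The genes whose variation over 22 arrays was most like Cirbp, once group and array block were removed, were Ctps (r = 0.847), Samd8 (0.834), Mccc2 (0.819), Crebzf (0.816), Kdm5a (0.809) and 4632427E13Rik (0.795). Ctps encodes CTP synthase, Mccc2 a subunit of a leucine-degrading carboxylase, and Kdm5a a histone demethylase. Without WT LPS replicate 5 these correlations were between 0.673 and 0.792. Rbm3 stood 2208th on this list.

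Those most like Rbm3 were Ptdss1 (r = 0.768), Tstd3 (0.76), Lipt2 (0.759), B3galt5 (0.745), Abhd3 (0.744) and Denr (0.744). Ptdss1 makes phosphatidylserine, and Denr takes part in translation reinitiation. Cirbp stood 1547th, and no gene was on both lists of 6. These likenesses are the extremes of 19934 comparisons for each gene and are given as a description.

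Lists of genes that are functionally tied to Cirbp and Rbm3 were read beside them in the same fit. Of 10 measured relatives with RNA recognition motifs (14 listed), none was called after LPS in WT mice or in KO against WT under LPS. These comparisons called 1.8% and 0.0401% of all genes. Tra2a, a splicing regulator, stood at 0.19 after LPS in WT mice (SE 0.05; adjusted p = 0.0609 in limma). With the array block it was called there, at 0.19 (SE 0.04; adjusted p = 0.0103), where 2.17% of all genes were called. Under LPS the KO against WT values of Hnrnpab and Hnrnpa0, abundant nuclear RNA-binding proteins, were 0.11 and 0.13 (adjusted p = 0.344 each). The list's median in KO against WT under LPS was 0.09, against -0.002 over all genes, and with the array block it was 0.02, against 0.003 over all genes.

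None of 10 measured regulators and partners was called in either comparison, which called 1.8% and 0.0401% of all genes. Sp1, a factor that binds GC boxes, stood at -0.20 after LPS in WT mice (SE 0.06; adjusted p = 0.134 in limma). Rtn3, whose translation RBM3 is known to promote, stood at 0.10 in KO against WT under LPS (SE 0.04; adjusted p = 0.363). The 5 described mRNA targets of CIRBP had no called member: Txn1, which encodes thioredoxin, was 0.19 in KO against WT under LPS (SE 0.10; adjusted p = 0.477).

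Of 4 receptors through which extracellular CIRBP is known to act or which have been described for it, 1 rose after LPS in WT mice. It was Il6ra, which also encodes the receptor of IL-6 itself, by 0.30 (SE 0.06; adjusted p = 0.00878 in limma), where 1.42% of all genes were called higher and 0.376% lower. In KO mice Il6ra stood at 0.24 (adjusted p = 0.0693), and with the array block it was called there too, at 0.24 (SE 0.06; adjusted p = 0.0247). Of all genes, 1.34% were called in KO mice without the block and 1.59% with it. The interaction of Il6ra with the block was -0.06 (adjusted p = 1), and KO against WT under LPS gave -0.16 (SE 0.06; adjusted p = 0.344). Tlr4, Ly96 and Trem1 were not called in these comparisons.

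Of 17 measured clock genes, 1 rose and 1 fell after LPS in WT mice, where 1.42% of all genes were called higher and 0.376% lower. Ciart, a repressor of the clock, rose by 0.30 (SE 0.07; adjusted p = 0.0215 in limma), and Dbp, an output gene of the clock, fell by 0.22 (SE 0.06; adjusted p = 0.0318). With the array block, where 2.17% of all genes were called, Per1 was called as well, at 0.35 (SE 0.07; adjusted p = 0.00221). After LPS in KO mice no clock gene was called, and with the block 1 was: Nr1d1, a repressor of the clock, at -0.27 (SE 0.07; adjusted p = 0.0357). Of all genes, 1.34% were called there without the block and 1.59% with it. In KO against WT under LPS no clock gene was called with or without the block, where 0.01% and 0.0401% of all genes were. Per1 stood at -0.22 in that comparison (SE 0.09; adjusted p = 0.397), and at -0.08 with the block.

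The heat-shock genes, which answer to temperature in the opposite direction to Cirbp and Rbm3, had no called member of 17 after LPS in either genotype or in KO against WT. Over all genes, calls were made for 1.8% after LPS in WT mice and 1.34% after LPS in KO mice. For KO against WT they were made for 0.0401% under LPS and 0.00502% under saline. Hspb1 stood at 0.21 (adjusted p = 0.272 in limma) and Hspa1a at -0.15 (adjusted p = 0.809) after LPS in WT mice. The list's median after LPS in WT mice was -0.005, against -0.01 over all genes. In KO against WT under LPS its median was 0.04 (0.02 with the array block), with Fkbp4 at 0.12 (adjusted p = 0.34) and Bag3 at -0.15 (adjusted p = 0.344).

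None of 12 CLK kinases and SR splicing factors, whose temperature-dependent splicing acts on Cirbp and Rbm3 transcripts, was called in these comparisons; Srsf1 stood at 0.15 in KO against WT under LPS (SE 0.07; adjusted p = 0.438 in limma). The 7 cold shock domain genes, which share a name but not a domain with Cirbp, and the 9 temperature-gated channels also had no called member. Shares over all genes were 1.8% after LPS in WT mice, 1.34% in KO mice and 0.0401% in KO against WT under LPS. Csdc2 stood at -0.21 (adjusted p = 0.409) and Trpv1 at -0.09 (adjusted p = 0.488) in KO against WT under LPS.

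Several of these lists differed by array number. On arrays 12 to 22 against arrays 1 to 11, where 10.9% of all genes were called higher and 10.6% lower, 6 of 10 RNA recognition motif relatives were higher and none lower. Of the CLK and SR genes 7 of 12 were higher and 1 lower, led by Clk1 at 0.37 (SE 0.05; adjusted p = 1.85e-05 in limma), and of the heat-shock genes 9 of 17 were higher and 1 lower, led by Hspd1 at 0.34 (SE 0.05; adjusted p = 7.67e-05). Of the clock genes 2 were higher and 5 lower, led by Per1, at -0.33 (SE 0.05; adjusted p = 9.67e-05). The fits above with the array block give the Cirbp and Rbm3 differences between genotypes at a constant block. Genotype was unevenly spread over the blocks, and the array number's part in these differences was not tested.

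**Figure D5:**
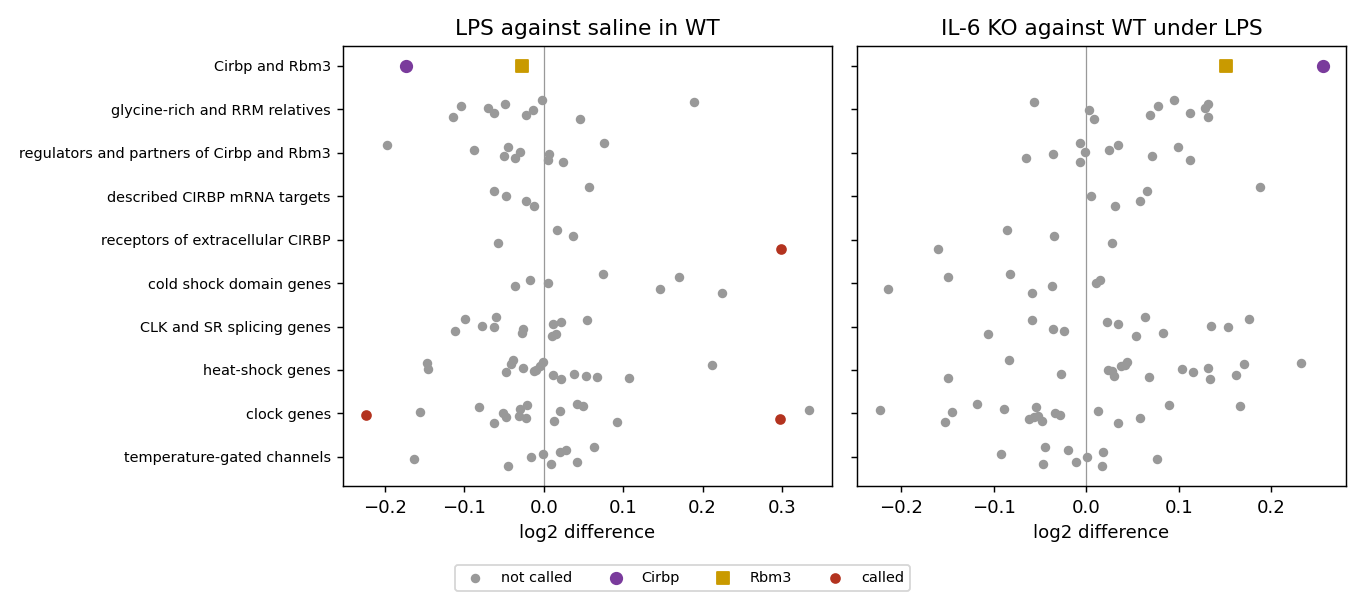
Log2 difference of every measured gene of 9 lists related to Cirbp and Rbm3, after LPS in WT mice (left) and in KO against WT mice under LPS (right), 1 point per gene; red marks genes called at an adjusted p under 0.05. Cirbp and Rbm3, on the top line, were not called; after LPS in WT mice only Il6ra, Ciart and Dbp were.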

How the data were processed

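Total RNA of the hypothalamus was hybridised to Affymetrix arrays. The authors deposited a single table of log2 values (28815 probe sets, 22 arrays), made with RMA, per the submitters' processing notes, which give no version; the genome build was not given in the sources used here. Medians across arrays were 0 for each probe set (largest deviation 7.02e-07), so these values state how far an array lies from the median array and hold no level. That the logarithm is to base 2 is an assumption taken from RMA's custom. Precision is limited by the number of arrays.

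Probe sets with 1 symbol (21780, of which 21689 matched RefSeq names on GRCm38.p6) were averaged per gene; 1605 with several symbols and 5430 with none were left out. limma 3.58.1 in R 4.3.3 fitted 1 mean per group to all 19935 genes, with Benjamini-Hochberg adjustment over all of them and calls at an adjusted p under 0.05. The array block (numbers 1 to 11 and 12 to 22) was added as an alternative. Exact permutation tests over arrays were two-sided, and correlations used 100000 permutations within groups or within groups and blocks. The tests were checked on simulated data. Replicates were numbered in deposition order.

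The genes, the related lists and the tests were chosen with earlier results of these data known. The text names Cirbp, Rbm3 and Il6, the 6 genes most like each in the residuals of group and block, the 8 genes paired with them in the correlations where measured (Hspa1b had no probe set of its own), called members of each list (at most 4) or else its 2 smallest p (some left out for length), and the carry-over markers Ttr, Gh and Prl. Alternatives were median centring, quantile normalization, array weights, robust moderation, a filter on low variance, single Rbm3 probe sets, fits of only the groups compared, the array number as a linear term, fits within each block, leaving out the 4 arrays that carried the most Ttr or Gh, and leaving out each array. Weights with the block, the block without KO LPS replicate 1 or WT LPS replicate 5, and the likeness without the latter were added after seeing the data.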

Additional observations from a re-analysis of the deposited data

Results flagged for a closer look

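Cirbp in WT LPS replicate 5 lay at -0.49, far from the other 6 arrays of its group, the nearest of which was at -0.18. The gap was 0.649 of the group's whole range, above the limit of 0.568 for 7 arrays. In 8 groups tested (2 genes in 4 groups each) chance marks about 1 in 20. Rbm3 on the same array was the lowest of its group too, at -0.24. This array also carried Ttr, made by the choroid plexus, at 2.80. WT saline replicate 1, with Ttr at 4.62, had Cirbp at -0.05 and Rbm3 at -0.10. WT LPS replicate 2, with Ttr at 2.43, had Cirbp at -0.16 and Rbm3 at 0.03. Whether carry-over bears on these values was not tested. Without WT LPS replicate 5, KO against WT under LPS was 0.20 for Cirbp (adjusted p = 0.331 in limma) and 0.13 for Rbm3 (adjusted p = 0.525). Without this and 3 other arrays that carried the most Ttr or Gh, the LPS difference of Cirbp in WT mice was -0.14, against -0.17 over all arrays, and KO against WT under LPS was 0.18.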

How the results depend on the processing

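No paired analysis was possible because the labels give no pair or litter for an array, and replicates were numbered in deposition order. In all alternatives run, KO against WT stayed positive for both genes. With array quality weights Cirbp passed under LPS at 0.26 (limma adjusted p = 0.0268) and the genotype effect averaged over treatments passed for Cirbp at 0.24 (0.0115) and Rbm3 at 0.16 (0.0179); adding the array block ended all 3 calls. Leaving out each array in turn, that effect ranged from 0.19 to 0.25 for Cirbp and from 0.15 to 0.18 for Rbm3, each called in 1 of 22 fits (without KO LPS replicate 1). The interaction then ranged from 0.02 to 0.12 for Cirbp and from -0.043 to 0.0121 for Rbm3. Cirbp on arrays 12 to 22 against arrays 1 to 11 passed when arrays were median-centred (0.1419), weighted (0.1435) or robustly moderated (0.1369), and in 6 of 22 fits with an array left out, namely WT LPS replicate 3, 4, 5 or 6, KO LPS replicate 7 or KO saline replicate 4 (0.11 to 0.16 over all 22; lowest adjusted p 0.0195). Within arrays 12 to 22 Rbm3 after LPS was 0.0043 in WT mice, 0.0003 in KO mice and 0.0023 averaged, against negative values over all arrays; within arrays 1 to 11 it was -0.04, -0.17 and -0.10. With the array number as a linear term KO against WT under LPS was 0.22 for Cirbp and 0.14 for Rbm3 (limma adjusted p = 0.418 and 0.664). Among KO saline arrays the Rbm3 array block difference was -0.0453, from 1 array against 3. Genes called in KO against WT under LPS went from 8 to 2 with the block and 16 after quantile normalization; under saline, from 1 to 0 (no gene) after quantile normalization; averaged, from 5 to 3 with the block. The correlation of Cirbp with Rbm3 was r = 0.512 (permutation p = 0.0357, unadjusted) after median centring. The causes of these changes were not tested. Depth does not apply; centring removed signal over background.

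The limits are 4 arrays per saline group, genotype unevenly spread over array numbers, values without levels, and 1 probe set for Cirbp. Body temperature at death is not given and was not analysed here. No comparison of Cirbp or Rbm3 passed the adjusted threshold in the fit of 4 group means.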
